A study of Mus musculus with 30 samples.

Results

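The cytosolic chaperones and co-chaperones described here are 42 genes chosen by name from the HSP70, HSP110, HSP40, HSP90, small HSP and BAG families, together with the co-chaperones of HSP70 and HSP90, the mitochondrial chaperonins and the heat shock factors. A row was found for 41 of them among the 47643 genes listed, and all 41 passed the filter on low values (a mean FPKM of at least 0.1) that left 16897 genes for testing. The RNA of *Hspa14* was not analysed here, and this gene counts only in the promoter search below. The list holds 3 mitochondrial genes, *Hspa9*, *Hspd1* and *Hspe1*, and 2 nuclear regulators, *Hsf1* and *Hsf2*, so its name covers more than the cytosol.

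RNA was sequenced from microglia, the resident macrophages of the brain, sorted from 3 month-old mice on CD11b and CD45. Homo mice carried *Bin1* flox/flox and *Cx3Cr1-Cre* (5 males and 5 females), Het mice *Bin1* wt/flox and *Cx3Cr1-Cre* (6 males and 5 females), and the controls labelled WT, given in the study as *Bin1* wt/flox without Cre, numbered 5 males and 4 females. All groups therefore share at least 1 floxed allele, and Cre is expressed from the *Cx3cr1* locus, so that the Cre allele and the loss of a *Bin1* copy come together in every Het or Homo mouse. Each library is labelled with the number of its mouse, as in WT-M-0202, and 6 libraries (Homo-M-0093, Homo-M-0097, Homo-M-0109, Het-M-0100, Het-M-0108 and WT-F-0122) have lower numbers than the other 24. In the repository's protocol text the cells are instead newborn microglia in culture given Tau, LPS and ATP; the study's account of sorted adult cells was followed.

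Chaperones of the HSP70 family bind unfolded stretches of client proteins and release them in a cycle of ATP hydrolysis, which J-domain proteins (HSP40) start and nucleotide exchange factors (HSP110 and BAG proteins) end. Clients pass from HSP70 to HSP90 on adaptor proteins, and HSP90 acts in its own ATP cycle with a set of co-chaperones. Some genes of each family are transcribed in all cells, such as *Hspa8* and *Hsp90ab1*, whereas others, such as *Hspa1a*, *Hspa1b* and *Hsph1*, are induced by heat shock factor 1 through heat shock elements, repeats of the unit GAA in alternating orientation.

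To show which of these genes hold such repeats near their start, the 300 bases from 250 before to 50 after the start site were searched in the RefSeq promoters of build GRCm38.p6, in which 34 of the 42 genes were found. A pair of units (GAANNTTC or TTCNNGAA, each its own reverse complement, so that both strands are read) was present for 15 of these 34 genes (44.1%) and for 17.0% of all 27025 genes. A run of 3 units (GAANNTTCNNGAA or TTCNNGAANNTTC, which contain the pairs) was present for 5 of the 34, namely *Hsph1*, *Hspd1*, *Hspe1*, *Dnajb6* and *Chordc1*, and for 0.662% of all genes. No promoter was found for *Hspa8*, *Hspa9*, *Hsp90aa1*, *Hsp90ab1*, *Cryab*, *Bag4*, *St13* and *Hsf1*. The windows below are those of 3 genes whose RNA was lower in male Homo mice, *Hspa1b*, *Dnaja1* and *Fkbp4*, and of *Hspe1*, whose RNA did not pass the test, printed 5′ to 3′ on the strand of the gene with the matched bases in capitals. They lie at chr17:34959295-34959382 on the minus strand (*Hspa1b*), chr4:40722304-40722391 on the plus strand (*Dnaja1*), chr6:128438760-128438847 on the minus strand (*Fkbp4*) and chr1:55088019-55088116 on the plus strand (*Hspe1*).
Hspa1b: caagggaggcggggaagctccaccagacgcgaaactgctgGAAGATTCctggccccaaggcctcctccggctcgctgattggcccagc
Dnaja1: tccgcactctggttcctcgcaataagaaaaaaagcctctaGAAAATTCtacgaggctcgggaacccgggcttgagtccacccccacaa
Fkbp4: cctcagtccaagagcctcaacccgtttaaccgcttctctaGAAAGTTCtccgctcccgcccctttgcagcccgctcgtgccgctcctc
Hspe1: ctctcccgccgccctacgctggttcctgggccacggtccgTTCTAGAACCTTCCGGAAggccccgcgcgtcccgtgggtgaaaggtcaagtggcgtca
Relative to the start site the match begins at base -104 in *Hspa1b*, -124 in *Dnaja1*, -151 in *Fkbp4* and -89 in *Hspe1*. The window of *Hspa1a* has the same letters as that of *Hspa1b*, and the run in *Hspe1* is shared with *Hspd1*, which is transcribed from the other strand. A match describes the letters only, and binding of a factor was not measured.

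The levels of the 41 genes spanned the range of microglial expression, from *Hspa8*, with a mean of 441 FPKM over the 30 libraries, above 99.4% of the genes tested, to *Hspb1* at 0.171 FPKM. FPKM are fragment counts divided by transcript length and by the mapped fragments of the library, so that levels may be compared between genes. After *Hspa8* came *Dnajc7* (254 FPKM), *Hsp90ab1* (170 FPKM), *Dnajb6* (62.2 FPKM) and *Hspe1* (55.9 FPKM). The stress-inducible genes *Hspb1*, *Hspa1a* (0.815 FPKM) and *Hspa1b* (2.03 FPKM) stood near the bottom. Transcripts of *Hspa1a* and *Hspa1b* are 99.2% identical over 2201 bases, so the division of reads between them is uncertain. The absolute depth of the libraries is unknown. Their relative depth was not measured but estimated from the ratios between libraries of the FPKM of genes at low levels. By this estimate it lay between 0.669 and 1.41 times that of the median library. It was 0.979 to 1.35 in WT males and 0.669 to 0.921 in the males of lower mouse number. Het-M-0203 was at 0.727 and the other Het and Homo males at 0.928 to 1.41. The part of depth in the values was not tested. *Bin1* was between 230 and 290 FPKM in male WT libraries and between 39.9 and 55.6 FPKM in male Homo libraries. The library labelled Het-M-0199 had *Bin1* at 51.8 FPKM, within the male Homo range, and Het-F-0206 had *Bin1* at 42.7 FPKM and *Cx3cr1* at 13.9 FPKM. Leaving out Het-F-0206 left every count of these genes called against WT as it was, and leaving out Het-M-0199 left the counts of male Het against WT.

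In male mice, 8 of the 41 genes were lower in Homo than in WT microglia, and 0 were higher. Of all genes tested, 0.645% were called lower and 1.17% higher in the same comparison, a call being a Benjamini-Hochberg adjusted p (limma, over all genes) below 0.05 with a fold change above 1.5 on the scale of log2(FPKM + 0.1). The 8 genes were *Hspa8*, *Hspa1b*, *Hsp90aa1*, *Hsp90ab1*, *Dnaja1*, *Dnajb1*, *Bag3* and *Fkbp4*. The paper names 5 of them (*Hspa8*, *Hsp90aa1*, *Hsp90ab1*, *Dnaja1* and *Dnajb1*) from the same samples, so their direction is not independent evidence. With the adjusted p alone, *Stip1*, *Ahsa1* and *Ptges3* were added, giving 11 genes lower (1.27% of all genes). At an unadjusted p below 0.05, 20 were lower (10.5% of all genes). The groups did not overlap, with every Homo library below every WT library, for 9 genes (1.37% of all genes). In all, 34 of the 41 fold changes were below 0, against 46.4% for all genes, with a median on the log2 scale of -0.28 (0.03 for all genes). Without scaling between libraries 31 of the 41 were below 0, and of all genes called 23.0% of 282 were lower, against 35.6% of 306 with scaling. In a sample of many cells, fewer cells that express a gene and less RNA per cell cannot be told apart.

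**Figure D1:**
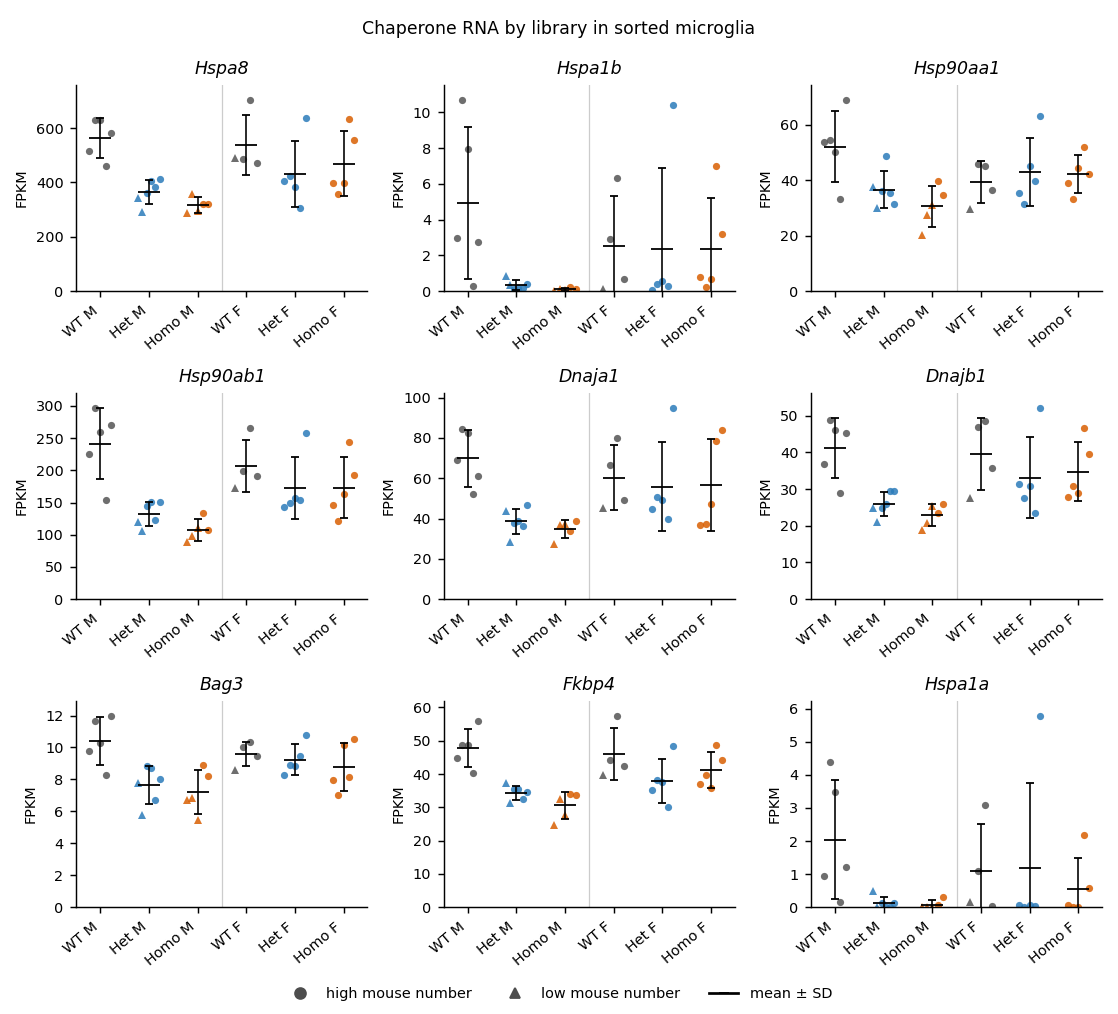
FPKM of the 8 genes called lower in male Homo mice and of *Hspa1a*, by group (M male, F female); each point is 1 library (triangles: low mouse numbers), and the bar and whiskers give the mean and SD. All male WT libraries stand above all male Het and Homo libraries for *Hspa8*, *Hsp90ab1*, *Dnaja1* and *Fkbp4*, libraries overlap for the other 5 genes, and the female groups overlap and hold single high libraries such as Het-F-0257.

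The constitutive HSP70 gene *Hspa8*, which encodes Hsc70, was at 516, 628, 630, 460 and 583 FPKM in WT-M-0176, WT-M-0177, WT-M-0178, WT-M-0202 and WT-M-0258. It was at 286, 358, 295, 322 and 322 FPKM in Homo-M-0093, Homo-M-0097, Homo-M-0109, Homo-M-0189 and Homo-M-0190, all below the WT libraries. Values of male libraries follow in these orders. Het males lay between 290 and 411 FPKM (median 372, n = 6), also below every WT library. Between Homo and WT males the log2 fold change was -0.91 ± 0.18 (SE; limma, adjusted p = 0.0075). *Hspa8* lies at chr9:40800984-40810087 (GRCm38, plus strand). Other genes with near-identical transcripts, which are mostly its pseudogenes, summed to 12.4 FPKM on average.

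The inducible HSP70 genes were low in all groups. *Hspa1b* was at 2.99, 10.7, 7.96, 0.259 and 2.74 FPKM in WT-M-0176, WT-M-0177, WT-M-0178, WT-M-0202 and WT-M-0258. In Homo-M-0093, Homo-M-0097, Homo-M-0109, Homo-M-0189 and Homo-M-0190 it was listed at 0, 0.121, 0.0391, 0.235 and 0.143 FPKM, and Het males lay between 0.126 and 0.849 FPKM (median 0.261). WT-M-0202 was close to the Cre-positive males, and the other 4 WT libraries were at 2.74 FPKM or above. The log2 fold change in Homo males was -4.05 ± 0.96 (SE; limma, adjusted p = 0.0243), and it depends on the pseudocount (-2.07 with a pseudocount of 1). *Hspa1a* was at 0.933, 4.40, 3.49, 0.160 and 1.22 FPKM in the same WT males. In Homo males it was listed at 0 or effectively 0 in 3 libraries and at 0.070 and 0.298 FPKM in the others, and Het males lay between 0 and 0.485 FPKM (median 0.0566). Its log2 fold change, -3.30 ± 1.01 (SE), did not pass the test (limma, adjusted p = 0.065).

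Both HSP90 genes were lower. The constitutive *Hsp90ab1* was at 226, 297, 260, 154 and 270 FPKM in male WT libraries and at 88.7, 97.4, 110, 133 and 107 FPKM in Homo libraries. Het males lay between 105 and 151 FPKM (median 134), so all Het and Homo males were below the lowest WT library. *Hsp90ab1* had the smallest adjusted p of the list, with a log2 fold change of -1.23 ± 0.20 (SE; limma, adjusted p = 0.00145). The inducible *Hsp90aa1* was at 53.7, 54.7, 50.1, 33.4 and 69.0 FPKM in WT males and at 20.1, 27.5, 30.9, 39.9 and 34.5 FPKM in Homo males. Here the groups overlapped, since Homo-M-0189 and Homo-M-0190 exceeded WT-M-0202, as did 4 of the 6 Het males, which lay between 29.9 and 48.7 FPKM (median 35.9). The log2 fold change was -0.85 ± 0.21 (SE; limma, adjusted p = 0.0265).

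Among the 10 J-domain proteins, which deliver clients to HSP70 and stimulate its ATPase, 2 were lower and 8 did not pass the test. *Dnaja1*, a cytosolic partner of Hsc70, was at 69.0, 84.6, 82.6, 52.0 and 61.0 FPKM in WT males and at 27.5, 36.8, 37.2, 34.0 and 38.6 FPKM in Homo males. Het males lay between 28.3 and 46.5 FPKM (median 38.5), so neither Cre-positive group overlapped the WT males. The log2 fold change in Homo males was -1.07 ± 0.24 (SE; limma, adjusted p = 0.0164). *Dnajb1*, the HSP40 that drives HSP70-mediated disaggregation, was at 36.8, 48.9, 46.1, 29.0 and 45.4 FPKM in WT males and at 18.9, 20.9, 25.3, 23.4 and 25.8 FPKM in Homo males. Het males lay between 21.0 and 29.6 FPKM (median 25.4), so that Homo and not Het libraries were all below WT. The log2 fold change of *Dnajb1* in Homo males was -0.92 ± 0.19 (SE; limma, adjusted p = 0.0126). The other J-domain genes had log2 fold changes between -0.35 (*Dnaja2*) and 0.50 (*Dnajc7*), and the median of the family was -0.23. Those of *Dnaja4*, *Dnajb2*, *Dnajb4*, *Dnajb5* and *Dnajb14* lay between -0.28 and -0.04. *Dnajb6*, a suppressor of amyloid aggregation and the most abundant of the DNAJB genes, had a log2 fold change of -0.13 ± 0.07 (SE). *Dnaja1* overlaps *Smu1* on the opposite strand, and reads were not assigned by strand.

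Of the exchange factors, *Bag3*, which links HSP70 to small heat shock proteins and to selective autophagy, was the only one of 6 BAG genes called. It was at 9.76, 11.7, 10.3, 8.31 and 11.97 FPKM in WT males and at 6.70, 6.83, 5.43, 8.87 and 8.21 FPKM in Homo males. Het males lay between 5.75 and 8.85 FPKM (median 7.92). Homo-M-0189 exceeded the lowest WT library, WT-M-0202. The log2 fold change was -0.61 ± 0.16 (SE; limma, adjusted p = 0.0392). *Bag1*, *Bag2*, *Bag4*, *Bag5* and *Bag6* had log2 fold changes between -0.28 and -0.07 and were not called. In the HSP110 family the inducible *Hsph1* had a log2 fold change of -0.81 ± 0.33 (SE; limma, adjusted p = 0.14), whereas the constitutive *Hspa4* was at -0.17 and *Hspa4l* at 0.04.

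The median log2 fold change of the 7 HSP90 co-chaperones was -0.44, and the fold changes of all 7 were below 0. *Fkbp4* encodes FKBP52, an immunophilin of steroid receptor complexes that also binds Tau. It was at 44.8, 48.7, 48.7, 40.4 and 55.8 FPKM in WT males and at 24.6, 32.6, 27.7, 34.1 and 33.7 FPKM in Homo males. Het males, at 31.3 to 37.2 FPKM (median 35.0), were also below every WT library. For *Fkbp4* the log2 fold change in Homo males was -0.73 ± 0.13 (SE; limma, adjusted p = 0.00355). Its paralogue *Fkbp5*, an opposing regulator of the glucocorticoid receptor, was not called (-0.16 ± 0.17, SE; limma, adjusted p = 0.60).

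*Stip1*, the adaptor HOP that joins HSP70 to HSP90, was at 28.4 to 35.2 FPKM in WT males and 21.97 to 25.9 FPKM in Homo males without overlap. Its log2 fold change of -0.50 ± 0.13 (SE; limma, adjusted p = 0.0332) was smaller than the fold required. *Ahsa1*, the activator of the HSP90 ATPase, was at 48.3 to 65.7 and 29.7 to 45.7 FPKM, and *Ptges3*, the co-chaperone p23, at 53.3 to 61.8 and 36.5 to 54.8 FPKM in the same groups. Their log2 fold changes were -0.58 ± 0.15 (SE; limma, adjusted p = 0.0361) and -0.44 ± 0.12 (SE; limma, adjusted p = 0.0392). *Cdc37*, the adaptor for kinases, and *Chordc1* had log2 fold changes of -0.38 and -0.16 and were not called. Of the HSP70 co-chaperones, *Hspbp1* had values of 16.8 to 18.5 FPKM in WT and 8.07 to 14.9 FPKM in Homo males without overlap, but did not pass the test (log2 fold change -0.57 ± 0.17, SE; limma, adjusted p = 0.055). For *St13* (HIP) the log2 fold change was -0.39 and that of the ubiquitin ligase *Stub1* (CHIP) was 0.10. The small heat shock genes *Cryab* (-0.31) and *Hspb1* (0.12) and the factors *Hsf1* (0.13), which induces many of these genes, and *Hsf2* (0.00) were not called in males.

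**Figure D2:**
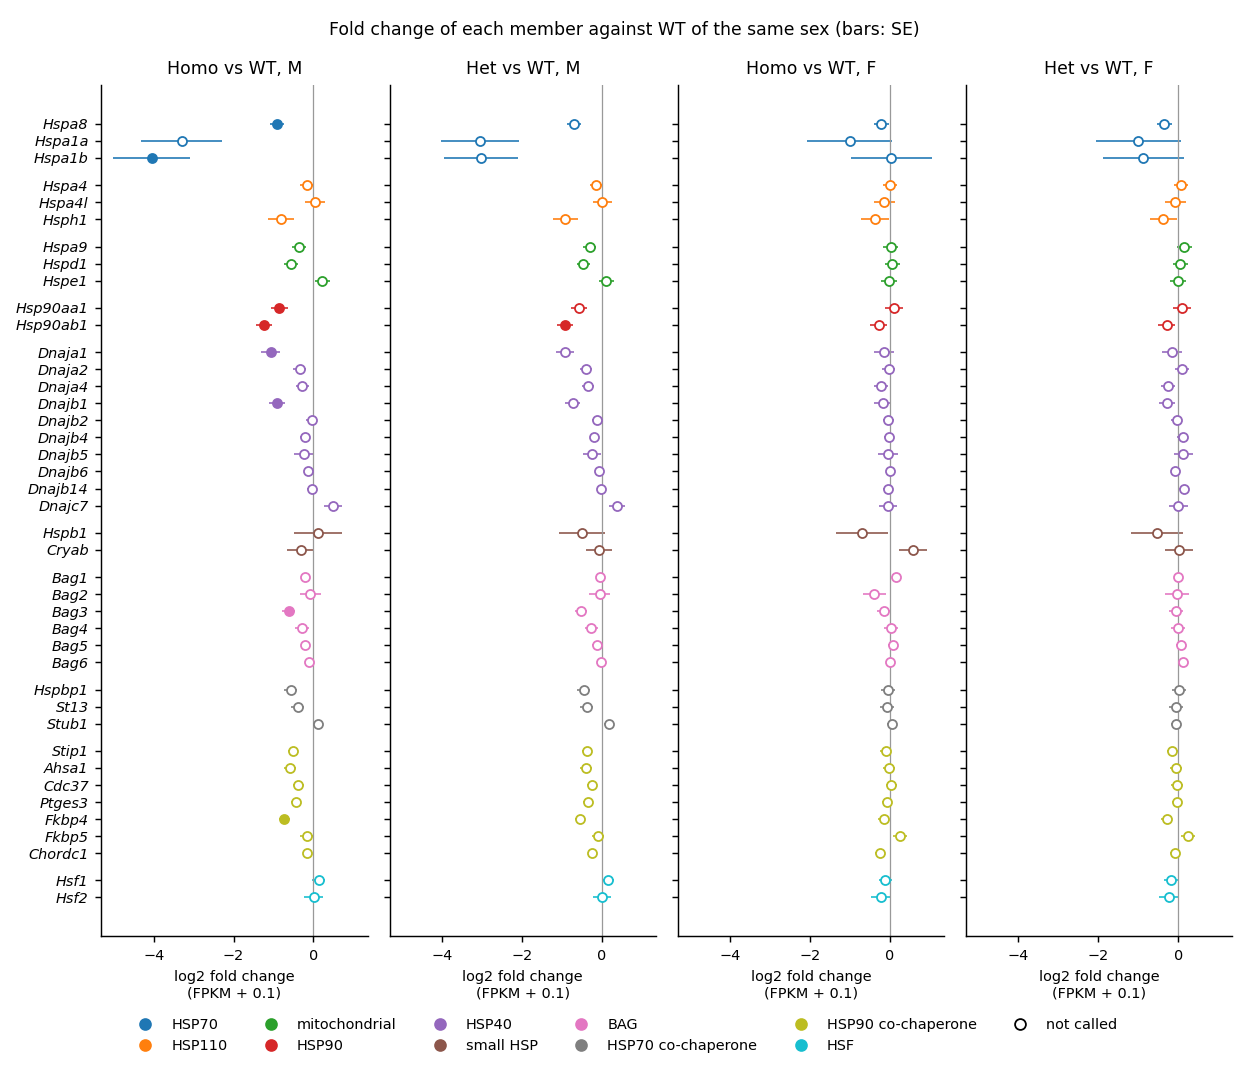
Log2 fold change (log2 of FPKM + 0.1) against WT of the same sex for the 41 genes, ordered and coloured by family, in Homo and Het males and Homo and Het females; bars give the SE from limma, and filled points were called. The 8 filled points of Homo males fall in the HSP70, HSP90, HSP40, BAG and HSP90 co-chaperone families; in Het males *Hsp90ab1* is filled, and in females no point is.

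By class, 2 of the 8 genes listed as constitutive (*Hspa8* and *Hsp90ab1*) were lower in male Homo microglia. So were 4 of the 8 listed as inducible (*Hspa1b*, *Hsp90aa1*, *Dnajb1* and *Bag3*) and 2 of the other 25 (*Dnaja1* and *Fkbp4*). Of all genes 0.645% were called lower. The median log2 fold change was -0.36 for the constitutive class, -0.83 for the inducible class and -0.20 for the other genes. The difference between the classes was asked directly with ratios of an inducible to a constitutive paralogue, tested by two-sided exact permutation tests in 12 comparisons. For *Hspa1a* and *Hspa1b* summed over *Hspa8*, the mean log2 ratio was -7.02 ± 1.73 (SD, n = 5) in WT males and -10.41 ± 0.96 (SD, n = 5) in Homo males. The difference from WT was -3.39 in Homo males (exact permutation p = 0.0238, adjusted over the 12 comparisons 0.0693) and -2.56 in Het males (exact permutation p = 0.0173, adjusted 0.0693). For *Hsph1* over *Hspa4*, the difference was -0.64 in Homo males (exact permutation p = 0.0476, adjusted 0.0714) and -0.78 in Het males (exact permutation p = 0.0346, adjusted 0.0693). For *Hsp90aa1* over *Hsp90ab1* the difference had the other sign in all comparisons, at 0.38 in Homo males, 0.35 in Het males and 0.39 in both Homo and Het females. These exact permutation p-values were 0.0238, 0.0346, 0.0476 and 0.0317, and the adjusted values lay between 0.0693 and 0.0714. No ratio passed the threshold after adjustment. Within each sex both comparisons use the same WT libraries. In females the other ratios differed by less than the spread between libraries, with exact permutation p-values between 0.381 and 0.984.

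**Figure D3:**
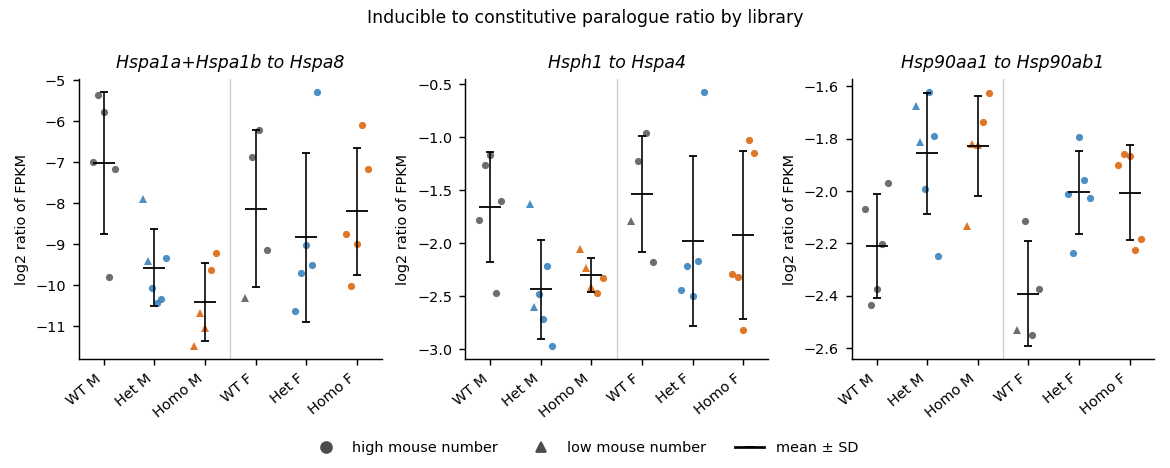
Log2 ratio of FPKM (0.1 added to both terms) of inducible over constitutive paralogues by group; each point is 1 library (triangles: low mouse numbers), with the mean and SD. The ratio of *Hspa1a* and *Hspa1b* to *Hspa8* is below that of 4 of the 5 WT males in every Cre-positive male, WT-M-0202 being the exception, and the mean ratio of *Hsp90aa1* to *Hsp90ab1* is higher in the Cre-positive groups of both sexes, with overlapping libraries and without passing the adjusted test.

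In Het males 1 gene of the 41, *Hsp90ab1*, was lower than in WT males (log2 fold change -0.92 ± 0.19, SE; limma, adjusted p = 0.0379), and 0 were higher. Of all genes, 0.0296% were called lower and 0.124% higher. At an unadjusted p below 0.05, 19 were lower (6.68% of all genes). Of the 41 fold changes 35 were below 0, against 48.1% for all genes, with a median of -0.26. Het and WT libraries did not overlap for 5 genes, *Hspa8*, *Hsp90ab1*, *Dnaja1*, *Ptges3* and *Fkbp4* (0.326% of all genes). Fold changes (log2) of *Hspa8* (-0.70 ± 0.17, SE), *Dnaja1* (-0.92 ± 0.23, SE), *Dnajb1* (-0.72 ± 0.19, SE) and *Fkbp4* (-0.54 ± 0.13, SE) had limma adjusted p-values between 0.069 and 0.098. Homo and Het males were compared directly, and 0 of the 41 were called in either direction (0% of all genes for both). At an unadjusted p below 0.05 the count was also 0 in both directions, against 1.92% of all genes lower and 1.93% higher. Of the 41 fold changes of Homo against Het males 32 were below 0, against 47.0% for all genes. Homo and Het males share the same WT libraries.

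The number of genes called in males depended on single libraries. In Homo males it was 3 without Homo-M-0093, 4 without WT-M-0177 and 5 without WT-M-0176, WT-M-0178 or Homo-M-0109, and 11 without WT-M-0202 or Homo-M-0189. The count of all genes called, in either direction, moved with it, from 306 to 76 without Homo-M-0093, 105 without WT-M-0177, 596 without WT-M-0202 and 819 without Homo-M-0189. *Hspa8*, *Hsp90ab1* and *Fkbp4* were called whichever library was left out, *Dnajb1* was lost in 1 of 10 such fits, *Dnaja1* in 2, *Hspa1b* in 5, and *Hsp90aa1* and *Bag3* in 7. In Het males the call of *Hsp90ab1* was lost in 7 of 11 fits, without WT-M-0176, WT-M-0177, WT-M-0178, WT-M-0258, Het-M-0100, Het-M-0108 or Het-M-0203, whereas 5 genes were called without WT-M-0202 (16 of all genes, against 5 with it). WT-M-0202 was the lowest of the 5 WT males for 22 of the 41 genes (53.7%), against 16.8% of all genes.

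Mouse numbers also separated the males. Low numbers were carried by 3 of 5 Homo males, 2 of 6 Het males and 0 of 5 WT males, so number range and genotype are partly confounded. What the order of the numbers reflects is not given in the sources used here. With the number range as a term in the fit, 1 gene was lower in Homo males, *Hsp90ab1* (log2 fold change -0.97; limma, adjusted p = 0.0363), and with the high numbers alone 0 were. Of all genes, 35 were called in either direction with that term and 10 with the high numbers alone, against 306. With only Homo-M-0189 and Homo-M-0190 against the WT males, the log2 fold changes of the 8 genes called were all nearer 0. They went from -1.23 to -0.98 for *Hsp90ab1*, from -1.07 to -0.92 for *Dnaja1*, from -0.91 to -0.80 for *Hspa8*, from -0.92 to -0.72 for *Dnajb1* and from -0.73 to -0.48 for *Fkbp4*. They went from -0.85 to -0.45 for *Hsp90aa1*, from -0.61 to -0.27 for *Bag3* and from -4.05 to -3.43 for *Hspa1b*. None of the 8 passed the test with these libraries (limma, adjusted p between 0.227 and 0.793). Among genes not called, it was -0.24 for *Ahsa1*, -0.10 for *Ptges3*, 0.03 for *Dnaja2*, 0.03 for *St13* and 0.00 for *Hspa9*. The median over the 41 genes went from -0.28 to -0.13.

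**Figure D4:**
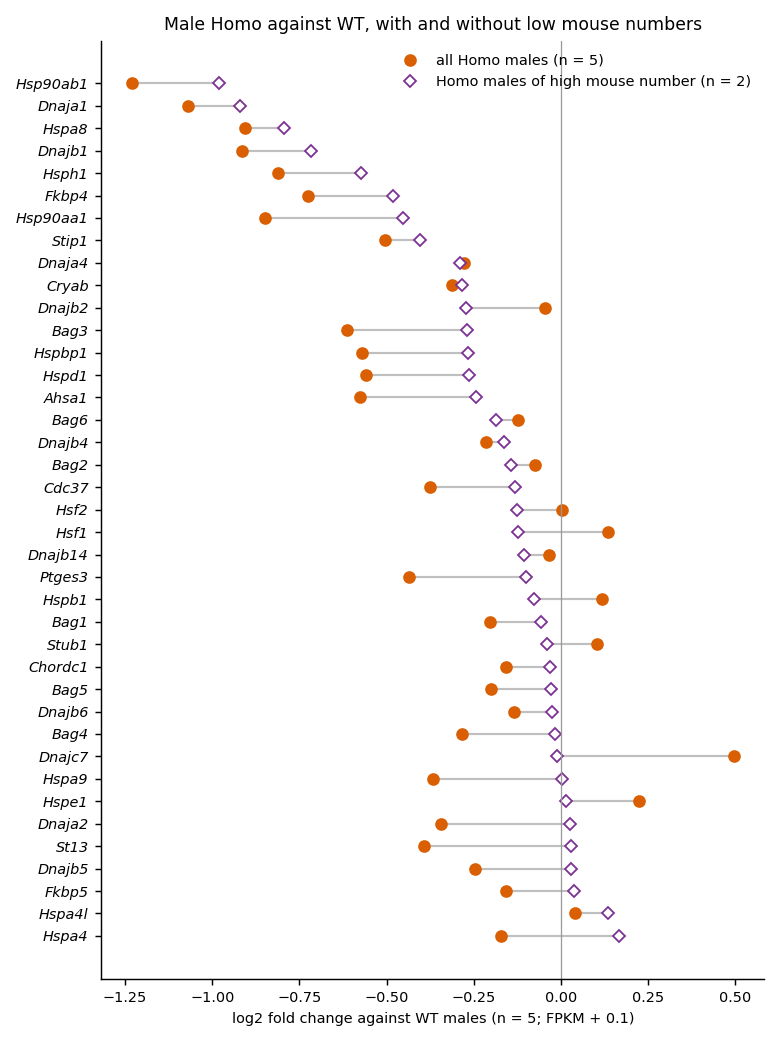
Log2 fold change of male Homo against WT mice (log2 of FPKM + 0.1) for 39 of the 41 genes, *Hspa1a* and *Hspa1b* left out for scale; circles use all 5 Homo males, and diamonds the 2 with high mouse numbers. *Hsp90ab1*, *Dnaja1*, *Hspa8* and *Dnajb1* are below -0.7 in both but nearer 0 in the latter, while genes such as *St13*, *Dnaja2*, *Hspa9* and *Dnajc7* move to about 0.

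The low and high numbers were then compared within the Het and Homo males, with genotype as a term. Lower in the low numbers were 3 genes, *Hspa9*, *Hspbp1* and *St13* (1.65% of all genes), and 1 was higher, *Dnajc7* (5.69% of all genes). Without scaling 0 were lower and 2 higher, and the share of lower genes among all genes called went from 22.4% of 1240 to 3.54% of 1583. *St13*, which encodes HIP, a factor that holds HSP70 on its client, was at 24.2, 22.9, 21.0, 29.3 and 26.3 FPKM in Het-M-0100, Het-M-0108, Homo-M-0093, Homo-M-0097 and Homo-M-0109. It was at 35.3, 36.5, 27.5, 35.3, 39.6 and 35.3 FPKM in the 6 males of high number, the third of these being Het-M-0203. The log2 difference was -0.69 ± 0.14 (SE; limma, adjusted p = 0.0226). *Hspa9* (mortalin, the mitochondrial HSP70) was lower by 0.60 on the log2 scale (limma, adjusted p = 0.047) and the exchange factor *Hspbp1* by 0.61 (limma, adjusted p = 0.040).

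*Dnajc7*, which carries both a J domain and TPR repeats, was at 559, 409, 509, 321 and 430 FPKM in the males of low number and at 179, 198, 397, 180, 187 and 232 FPKM in those of high number. Het-M-0203, at 397 FPKM, lay with the low numbers, as it did for *Hspe1* (103 FPKM). The log2 difference of *Dnajc7* was 0.88 ± 0.19 (SE; limma, adjusted p = 0.0237). *Dnajc7* overlaps *Cnp* and *Nkiras2* on the opposite strand, which were at 29.0 and 16.9 FPKM on average in the males of low number. With the adjusted p alone 11 genes were lower in the low numbers (6.29% of all genes) and 3 higher (8.41%), the latter being *Dnajc7*, *Hsf1* (0.57 ± 0.13, SE; limma, adjusted p = 0.0250) and *Stub1* (0.32 ± 0.08, SE; limma, adjusted p = 0.0330). *Stub1* overlaps *Jmjd8*, which was at 49.9 FPKM in the low and 37.0 FPKM in the high numbers on average. These counts varied with single libraries. The number lower was 0 without Het-M-0100, Het-M-0108, Homo-M-0189 or Homo-M-0190, 1 without Het-M-0197, Het-M-0199, Het-M-0210 or Homo-M-0093, and 7 without Het-M-0203. *Dnajc7* was lost without Het-M-0100, Het-M-0108, Het-M-0210, Homo-M-0093, Homo-M-0189 or Homo-M-0190, and 2 genes were higher without Het-M-0203 or Homo-M-0097. The shares over all genes rest on the same libraries, since the 1240 genes called became 1 without Het-M-0100, 2 without Het-M-0108, Homo-M-0189 or Homo-M-0190, and 2401 without Het-M-0203.

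Markers also moved between low and high numbers. Of 14 microglial genes 2 were lower in the low numbers, *Olfml3* (-0.64) and *C1qa* (-0.77), and 10 were at an unadjusted p below 0.05. Higher were the oligodendrocyte genes *Mbp* (1.30) and *Mobp* (1.88), the astrocyte gene *Gja1* (1.96), the border macrophage gene *Pf4* (0.88) and the neutrophil gene *S100a8* (4.84), and the endothelial gene *Pecam1* (-0.62) and the immediate early gene *Rhob* (-0.60) were lower (log2 differences; limma, adjusted p between 0.0226 and 0.0471). Their part in the chaperone values was not tested.

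The mitochondrial chaperonin pair showed unlike values in the same libraries. *Hspd1* (HSP60) and *Hspe1* (HSP10) form 1 folding chamber and share a start region, in which the run of units printed above lies. In males of low number *Hspd1* was at 21.5 to 27.3 FPKM and *Hspe1* at 56.4 to 112 FPKM. Their log2 differences from the high numbers were -0.44 ± 0.15 (SE) and 0.36 ± 0.22 (SE), and neither passed the test (limma, adjusted p = 0.062 and 0.28). In Homo against WT males the log2 fold changes were -0.56 (limma, adjusted p = 0.068) and 0.22 (limma, adjusted p = 0.50).

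In females 0 of the 41 genes were called in Homo or in Het mice, in either direction. Of all genes 0.00592% were lower and 0.0651% higher in Homo females, and 0% lower and 0.13% higher in Het females. At an unadjusted p below 0.05, *Chordc1* was lower in Homo females (-0.26 ± 0.11, SE; limma, adjusted p = 1), 1 of 41 genes against 1.17% of all genes. The log2 fold changes of *Hspa8* were -0.22 ± 0.19 (SE) in Homo and -0.34 ± 0.19 (SE) in Het females, those of *Hsp90ab1* -0.28 ± 0.21 (SE) and -0.29 ± 0.21 (SE), and those of *Dnaja1* -0.15 ± 0.25 (SE) in both. Every Homo female exceeded every WT female for 1 gene, *Bag1*, which was not called (1.65% of all genes). The median over the 41 genes was -0.04 in Homo and -0.03 in Het females. Without WT-F-0122, the female of low number, it was -0.09 and -0.08, with 33 and 29 of the 41 below 0 in place of 27 in both, and with the number range as a term it was -0.14 and -0.10. Homo and Het females did not differ in any of the 41 genes by the same test (0.0118% of all genes lower and 0% higher), also at an unadjusted p below 0.05 (0.959% lower and 1.1% higher).

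Within each female group single libraries stood apart, and the groups overlapped. Values are given in the order WT-F-0122, WT-F-0192, WT-F-0200 and WT-F-0207, then Het-F-0205, Het-F-0206, Het-F-0208, Het-F-0220 and Het-F-0257, then Homo-F-0193, Homo-F-0201, Homo-F-0228, Homo-F-0234 and Homo-F-0238. *Hspa8* was at 489, 485, 703 and 471 FPKM in WT, 404, 423, 384, 307 and 637 FPKM in Het and 399, 357, 397, 634 and 555 FPKM in Homo females. *Hsp90ab1* was at 173, 199.1, 265 and 191 FPKM in WT, 143, 149, 156, 154 and 257.6 FPKM in Het and 146, 121, 163, 243 and 192.3 FPKM in Homo females. WT-F-0200, Het-F-0257 and Homo-F-0234 were the highest of their groups for both genes. Most Het and most Homo females lay below the lowest WT female for both genes, and the others lay above it. For *Hsp90aa1*, given below, all Het and Homo females lay above the lowest WT female. *Dnajb1* was at 27.5, 46.9, 48.5 and 35.6 FPKM in WT, 31.4, 27.7, 30.9, 23.4 and 52.1 FPKM in Het and 28.0, 30.9, 28.9, 46.6 and 39.7 FPKM in Homo females. *Fkbp4* was at 39.6, 44.3, 57.4 and 42.5 FPKM in WT, 35.3, 38.3, 37.5, 30.2 and 48.4 FPKM in Het and 37.1, 39.7, 35.8, 48.9 and 44.3 FPKM in Homo females. The same 3 libraries were again the highest of their groups. *Hsp90aa1* was at 29.8, 45.9, 45.3 and 36.7 FPKM in WT, 35.5, 31.6, 45.0, 39.7 and 63.1 FPKM in Het and 39.0, 33.3, 44.6, 52.1 and 42.3 FPKM in Homo females. *Bag3* was at 8.58, 10.0, 10.3 and 9.46 FPKM in WT, 8.25, 8.92, 8.84, 9.44 and 10.8 FPKM in Het and 7.95, 7.02, 10.2, 8.17 and 10.5 FPKM in Homo females. For *Hsp90aa1* the highest WT female was WT-F-0192, for *Bag3* the highest Homo female was Homo-F-0238, and in both the 3 groups overlapped.

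The inducible HSP70 genes and *Dnaja1* were spread likewise. *Hspa1b* was at 0.129, 2.93, 6.31 and 0.698 FPKM in WT, 0.0806, 0.406, 0.584, 0.271 and 10.4 FPKM in Het and 0.782, 0.247, 0.673, 6.99 and 3.21 FPKM in Homo females. *Hspa1a* was at 0.157, 1.079, 3.10 and 0.0312 FPKM in WT, 0.0762, 0, 0.0626, 0.0498 and 5.78 FPKM in Het and 0.0514, 0, 0, 2.18 and 0.576 FPKM in Homo females. WT-F-0200, Het-F-0257 and Homo-F-0234 held the highest value of their group for both genes. *Dnaja1* was at 45.1, 66.7, 80.2 and 49.4 FPKM in WT, 44.5, 50.9, 49.0, 39.9 and 94.9 FPKM in Het and 36.8, 37.1, 47.3, 78.6 and 83.8 FPKM in Homo females. Here Homo-F-0238 exceeded Homo-F-0234. Het-F-0257 was the highest Het female for 24 of the 41 genes (58.5%), against 19.5% of all genes, WT-F-0200 the highest WT female for 20 (48.8%, against 23.6%), and Homo-F-0234 the highest Homo female for 16 (39.0%, against 15.2%). Leaving out any 1 female library left 0 genes called in both female comparisons.

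**Figure D5:**
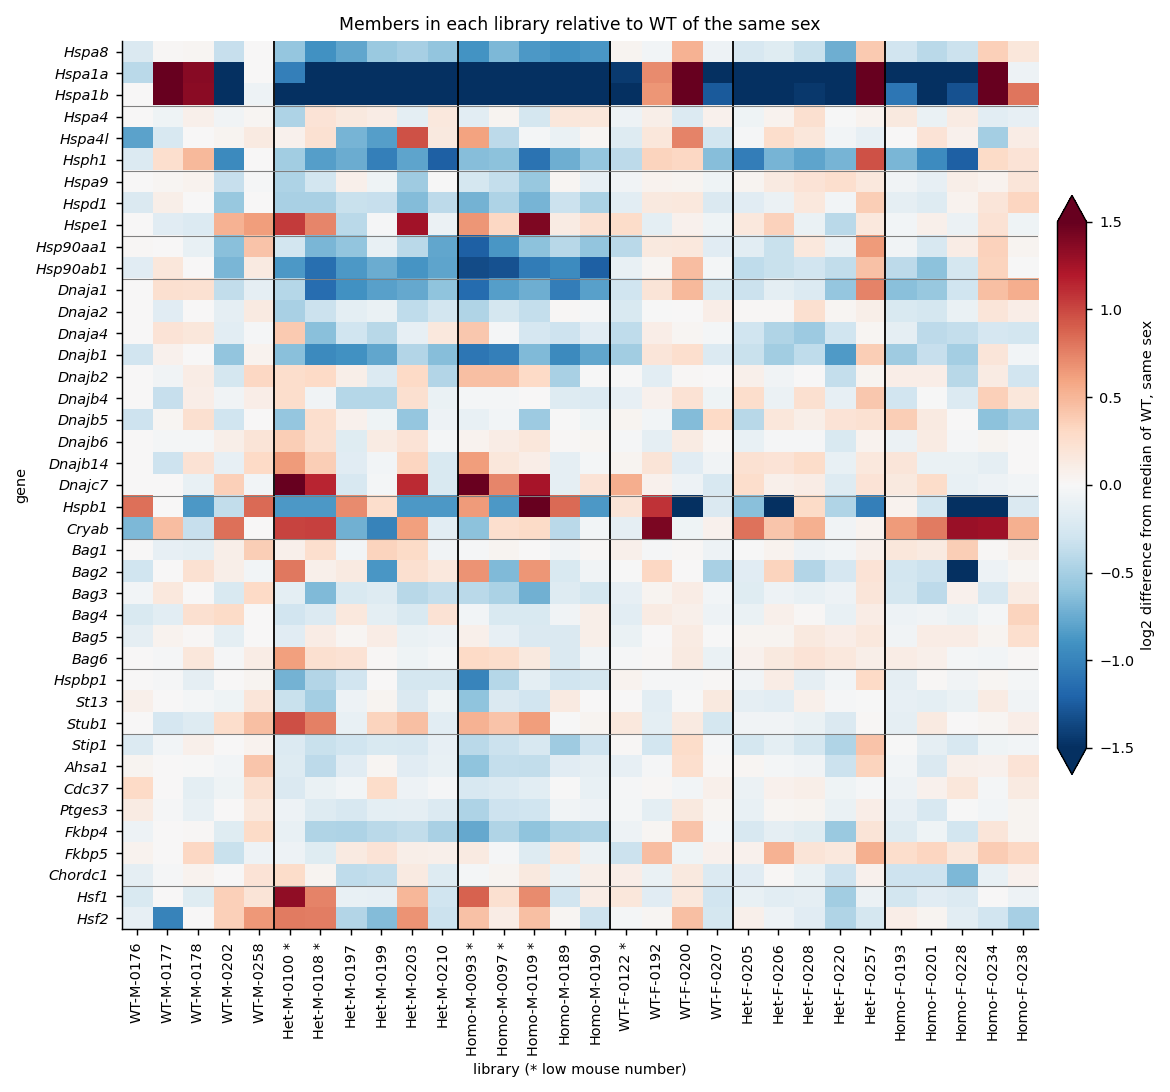
Log2 difference of each of the 41 genes (rows, by family) in each library (columns) from the median of the WT libraries of the same sex. To the values 0.1 was added. Here FPKM were multiplied by the scaling factor of the library, whereas the fits divided by it, so libraries with factors above 1 are drawn higher than in the fits. The factors were 1.03 to 1.15 in the starred males and 1.10 in Het-M-0203. Colours are cut at -1.5 and 1.5, and stars mark low mouse numbers. The rows of *Hspa8*, *Hsp90ab1*, *Dnaja1*, *Dnajb1* and *Fkbp4* are blue in all Het and Homo males, and Het-F-0257 stands out in red. *Dnajc7*, *Hspe1* and *Hsf1* are drawn red in most starred males and in Het-M-0203, where the multiplication adds to the red.

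Male and female fold changes were then set against each other with an interaction term. At an unadjusted p below 0.05, 14 of the 41 genes had a lower fold change in males than in females (4.4% of all genes), and 5 for Het mice (1.99%). None passed the limma test after adjustment over all genes (0% of all genes lower for both). The interaction was -0.95 ± 0.29 (SE; limma, adjusted p = 0.495) for *Hsp90ab1*, -0.95 ± 0.30 (SE; limma, adjusted p = 0.495) for *Hsp90aa1*, and -0.57 ± 0.19 (SE; limma, adjusted p = 0.497) for *Fkbp4*. Low numbers lie in Cre-positive males and in a WT female, and the median interaction over the 41 genes went from -0.33 to -0.10 with the number range as a term and to -0.06 with high numbers alone (Het mice, -0.25 to -0.12 and -0.11). A difference between the sexes is therefore not shown for any single gene of the list.

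Further genes of protein folding were read from a list of 44, of which 42 were tested. In Homo males 2 were lower and 0 higher, and in Het males and in both female groups 0 were called. *Hspb8*, the small heat shock protein that acts with *Bag3*, was at 0.112 to 0.945 FPKM in WT males and was listed at 0 in all 6 Het and in 4 of 5 Homo males (limma, adjusted p = 0.0346). *Nudc*, a co-chaperone of HSP90, was at 35.9 to 54.9 FPKM in WT and 21.7 to 38.5 FPKM in Homo males, with a log2 fold change of -0.67 ± 0.19 (SE; limma, adjusted p = 0.0492). The median of the list was -0.03. Of the 19 immediate early genes tested, *Klf2* was lower (log2 fold change -1.69; limma, adjusted p = 0.00991) and *Ier3* higher (1.26; limma, adjusted p = 0.0362) in Homo males, and their median was 0.11.

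Markers of other cells moved with the same comparison. Of the 8 neutrophil genes tested 4 were lower in Homo males (*Ngp*, *Lcn2*, *S100a9* and *Ltf*), and the summed level of the list of 12 was 44.3 to 350 FPKM in WT males, 0.258 to 190 FPKM in Het males and 0.079 to 80.8 FPKM in Homo males. Of the 4 monocyte genes tested *Chil3* was lower in Homo males (log2 fold change -4.60; limma, adjusted p = 0.0164), and of the 6 choroid plexus genes *Prlr* was lower in Homo (-2.34; limma, adjusted p = 0.0392) and Het males (-2.74; limma, adjusted p = 0.0489). Choroid plexus genes summed to 0.297 to 439 FPKM in WT males and 0.561 to 30.2 FPKM in Homo males, and border macrophage genes to 17.5 to 47.0 and 12.4 to 29.7 FPKM. Microglial genes summed to 30768 to 33691 FPKM in WT and 24911 to 34178 FPKM in Homo males, with 0 of 14 called. They were not all unchanged, since *Cx3cr1*, the locus of the Cre allele, was at 1829 to 2344 FPKM in WT and 726 to 1112 FPKM in Homo males, without overlap. The fit that did not call it shares 1 spread over all groups, including Het-F-0206 with *Cx3cr1* at 13.9 FPKM. The part of these cells in the chaperone values was not tested.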

How the data were processed

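Microglial RNA of 30 mice was sequenced by the authors with SMARTer and Nextera XT kits, which do not mark strand. The authors aligned reads to mm10 with OSA4 and deposited FPKM per gene of an Ensembl model estimated with RSEM, whereas their DESeq2 fit rests on counts that were not analysed here. The table also holds 6 columns of no listed sample, not used here, and absolute depth is unknown. The paper reports that 6 samples of poor quality, with few uniquely mapped reads and high duplication, were removed. Whether these are the 6 columns is not stated.

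Libraries were scaled to each other by median-of-ratios factors, taken from genes whose mean FPKM reached 1. Testing covered genes whose mean reached 0.1, on log2(FPKM + 0.1) with limma 3.58.1 (R 4.3.3), in 1 fit of all 6 groups with an intensity trend. Calls needed a Benjamini-Hochberg adjusted p under 0.05 over all 16897 genes and a fold above 1.5. Low and high mouse numbers were compared within Cre-positive males with genotype as a term. Paralogue ratios were tested with scipy 1.17.1. Near-identical transcripts (BLAST+ 2.17.0, at least 95% identity over 100 bases) and overlapping genes came from GENCODE M21 on GRCm38. The fits were run on values simulated for each gene separately, without effects shared by a library. Of 200 genes changed 2.5-fold in Homo males 72.5% were called. Such values cannot show how the calls depend on single libraries.

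All members are named, and other chaperones where called against WT. Values in every library (for the 6 Het males, the range and median) are given for members called against WT and for *Hspa1a*. Immediate early genes, markers and overlapping genes were named after their values were seen. The members and lists were chosen with earlier results of these data known. Libraries are separate mice by their labels. Alternatives were other pseudocounts (0.01 and 1), filters, scalings, array weights, only the groups compared, no fold threshold, number range and each library left out.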

Additional observations from a re-analysis of the deposited data

Results flagged for a closer look

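Single libraries lay far from the others of their group, by Dixon's criterion, in 17 of 246 sets of values (6.91%). Chance gives about 1 in 20 for independent sets of normally distributed values. These sets share libraries and include values near 0, so the 2 rates cannot be compared directly. Het-F-0257 was the high library for 7 genes, with *Hspa1a* at 5.78 FPKM, *Hspa1b* at 10.4 FPKM, *Hsph1* at 14.4 FPKM, *Hsp90ab1* at 257.6 FPKM, *Dnaja1* at 94.9 FPKM, *Dnajb1* at 52.1 FPKM and *Stip1* at 41.7 FPKM. *Hspa1a* was also high in Homo-F-0234 (2.18 FPKM), Het-M-0100 (0.485 FPKM) and Homo-M-0190 (0.298 FPKM). *Hspa8* was high in WT-F-0200 (703 FPKM), *Cryab* in WT-F-0192 (2.92 FPKM), *Bag4* in Homo-F-0238 (6.50 FPKM), *Hspe1* in Homo-M-0109 (112 FPKM) and *Ahsa1* in WT-M-0258 (65.7 FPKM). *Dnajb6* was low in Homo-M-0093 (55.6 FPKM) and *Hsf1* in Het-F-0220 (23.5 FPKM).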

How the results depend on the processing

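In Homo males the 8 genes lower became 3 with only the groups compared, 1 with the number range as a term and 0 with high numbers only, and 3 to 11 with 1 library left out. In Het males the 1 gene lower became 0 without a filter on low values, with array weights, with only the groups compared, with the number range as a term and with high numbers only, and 0 to 5 with 1 library left out. Between low and high numbers the 3 genes lower became 1 with a pseudocount of 1, 0 without scaling and 11 without a fold threshold, and 0 to 7 with 1 library left out; the 1 gene higher became 2 without scaling or with quantile normalization and 3 without a fold threshold, and 0 to 2 with 1 library left out. The cause was not tested, and some of these fits hold fewer samples. No fold change of a called gene reversed, and the counts of the other comparisons stayed at 0. Of all genes called in Homo males, 35.6% of 306 were lower, 23.0% of 282 without scaling, and 45.2% of 42 with only the groups compared; between low and high numbers the share was 22.4% of 1240 and 3.54% of 1583 without scaling, which moved the median of all genes from 0.09 to 0.23. Without scaling 31 of the 41 fold changes of Homo males were below 0, and with quantile normalization 36. No paired analysis was possible because each mouse number belongs to a single library. The FPKM hold no counts, so low levels such as those of *Hspa1a* and *Hspb1* carry an unknown counting error, and with 2 Homo males of high number the fit leans on the spread of the other groups.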
